A study of Mus musculus with 16 samples.

Results

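A set of 10 cartilage genes other than the collagens were followed through 16 mouse osteosarcomas: *Sox9*, *Sox5*, *Sox6*, *Acan*, *Comp*, *Hapln1*, *Matn1*, *Matn3*, *Chad* and *Epyc*. They were chosen by gene name, and 9 of the 10 were found among the 25054 genes of the count table. *Matn1* was not analysed here. All tumors arose in mice carrying OsxCreERT2+/-, p53fl/fl and Rb1fl/fl, in which a tamoxifen-dependent Cre is driven by *Osterix*, a gene of the osteoblast lineage. The mice received 400 µg/g of tamoxifen at 1 month of age, were older than 6 months and were of both sexes. The 8 tumors labeled *Arid1a* WT had these alleles without a floxed *Arid1a*, and the 8 labeled *Arid1a* KO also carried Arid1afl/fl, so the conditional *Trp53* and *Rb1* alleles were shared by both groups.

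The 8 KO tumors came from 8 mice, named Massa, Medusa, Montana, Ohio, Prince, Grilka, Zelda and Oregon, and their labels give no body site. The 8 WT tumors came from 4 mice. Mouse N42 gave 4 of them (R pelvis, R femur, L limb and L shoulder), N43 gave 2 (spine and pelvis), N215 gave 1 (R hind limb) and N25 gave 1 (lung). Tumors of one mouse are not independent, and p-values over tumors are then too small for the WT group. Genotype and mouse number also differ together, because multiple tumors per mouse occur only in WT.

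Chondrocytes make a matrix of type II collagen fibrils filled with aggrecan. The transcription factor *Sox9* is required for chondrocyte formation, and *Sox5* and *Sox6* are its partners at the enhancers of matrix genes. *Acan* encodes aggrecan, the large chondroitin sulfate proteoglycan that holds water in cartilage, and *Hapln1* encodes the link protein that fixes aggrecan to hyaluronan. *Comp*, *Matn1* and *Matn3* encode multimeric adaptor proteins that connect fibrils and proteoglycans. *Chad* (chondroadherin) and *Epyc* (epiphycan) encode leucine-rich repeat proteins of the cartilage matrix. Osteosarcoma can hold areas of tumor cartilage beside its bone matrix. Several of these genes also have roles elsewhere, since *Comp* is made in tendon, *Sox6* acts in erythroid cells and skeletal muscle, and *Sox9* is expressed in glandular epithelia.

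The promoter windows of 3 genes show the sequence context of the genes whose values carry most of what follows: *Acan*, which had the widest range within one mouse, *Matn3*, which had the lowest edgeR p-value between genotypes over the 16 tumors, and *Chad*, which had the lowest between body sites. Each window holds 250 bases before and 50 bases after a RefSeq transcript start (GRCm38.p6, 5′ to 3′, + strand). Capitals mark, on either strand, the words searched. The first SOX-type word is ACAATG. The other SOX-type word searched is ACAAAG. The TATA word is TATAAA. The GC-box word is GGGCGG, and its matches may overlap one another.
Acan chr7:79052976-79053275: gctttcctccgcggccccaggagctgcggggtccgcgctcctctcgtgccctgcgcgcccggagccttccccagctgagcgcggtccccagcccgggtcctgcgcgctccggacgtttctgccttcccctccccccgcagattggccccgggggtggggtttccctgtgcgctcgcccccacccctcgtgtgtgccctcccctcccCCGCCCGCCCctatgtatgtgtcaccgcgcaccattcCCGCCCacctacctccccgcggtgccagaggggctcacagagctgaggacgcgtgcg
Matn3 chr12:8947679-8947978: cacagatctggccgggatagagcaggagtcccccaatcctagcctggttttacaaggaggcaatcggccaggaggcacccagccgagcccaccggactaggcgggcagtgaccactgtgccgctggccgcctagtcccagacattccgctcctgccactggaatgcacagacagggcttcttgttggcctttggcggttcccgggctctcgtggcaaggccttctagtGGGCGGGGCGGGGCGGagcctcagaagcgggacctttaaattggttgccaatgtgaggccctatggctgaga
Chad chr11:94564797-94565096: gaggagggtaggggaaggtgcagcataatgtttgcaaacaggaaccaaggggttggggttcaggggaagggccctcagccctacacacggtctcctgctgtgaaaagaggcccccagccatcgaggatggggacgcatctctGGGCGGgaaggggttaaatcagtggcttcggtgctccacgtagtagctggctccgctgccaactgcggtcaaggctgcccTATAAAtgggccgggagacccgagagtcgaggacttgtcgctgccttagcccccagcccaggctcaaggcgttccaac

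None of the 3 windows held a SOX-type word, which occurs in 28.6% of the 32851 windows of the table. At least 1 window each of *Sox5*, *Sox6* and *Epyc*, not shown here, did hold such a word, and that of *Hapln1* did not. *Acan* and *Matn3* each held 3 GGGCGG matches and *Chad* held 1, against 35.66% of all windows with at least 1. *Chad* alone of the 3 held TATAAA, beginning 28 bases before the start, a word found in 13.62% of windows. Their GC content was 74% in *Acan*, 62.67% in *Matn3* and 61% in *Chad*, against a median of 52.67%. Of the 10 genes, 8 had an entry in the RefSeq promoter table. *Sox9* and *Comp* had none. A match in these windows describes letters and does not show that a factor binds there.

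Between 1109487 and 15059640 counts were assigned to genes in the KO tumors and between 7806160 and 16962329 in the WT tumors. Levels are given in CPM, that is counts scaled to library size with TMM factors. In Massa and Grilka, the shallowest libraries, 3 counts correspond to 6.69 and 4.03 CPM, against 0.146 to 0.340 CPM in WT. Their TMM factors were 0.409 and 0.414, against 0.626 to 1.504 in the other KO tumors and 1.15 to 1.436 in WT. A low factor raises CPM, and its part in the values of Massa and Grilka was not tested. *Arid1a* itself had a log2 fold change, KO minus WT, of 0.16 (SE 0.22, adjusted p = 0.715, edgeR), which counts reads over the whole gene and not over the deleted part. Markers of other tissues were high in some tumors. Summed CPM of 12 skeletal muscle markers reached 144900 in Oregon and 87410 in Montana, while no other tumor exceeded 8587. Summed CPM of lung markers was 12240 in Massa and 29170 in the lung tumor of N25. Salivary gland markers summed to 25790 CPM in Prince, and erythroid markers to 1647 CPM in Zelda. All 11 salivary gland markers of the table were above 0 in Prince and all 10 lung markers in Massa and N25. *Gm23935*, a short RNA gene annotated as a miRNA and named after its values were seen, ran from 426 to 113000 CPM in KO, highest in Grilka (113000 CPM) and Massa (63150 CPM), and from 58.1 to 3160 CPM in WT, highest in N215. Its part in the values of these tumors was not tested beyond its use as a covariate, given with the alternatives. In bulk RNA, fewer cells of a type and less RNA per cell cannot be told apart.

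Whether the cartilage genes differed with *Arid1a* genotype was tested with the edgeR quasi-likelihood test across 15413 genes. None of the 8 cartilage genes tested passed an adjusted p of 0.05, against 4.01% of all genes. At an unadjusted p under 0.05 there were 2 of the 8, *Sox6* and *Matn3*, against 23.0% of all genes. DESeq2 called 3 of the 8, *Sox9*, *Sox6* and *Matn3*, against 12.5% of all genes, and limma-voom with mouse as a random effect called none. *Epyc* was left out of the edgeR test by its low counts. The median log2 fold change of the 8 was −0.17, and that of all genes tested was 0.10. In no cartilage gene did KO and WT tumors separate without overlap, against 0.415% of all genes.

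**Figure D1:**
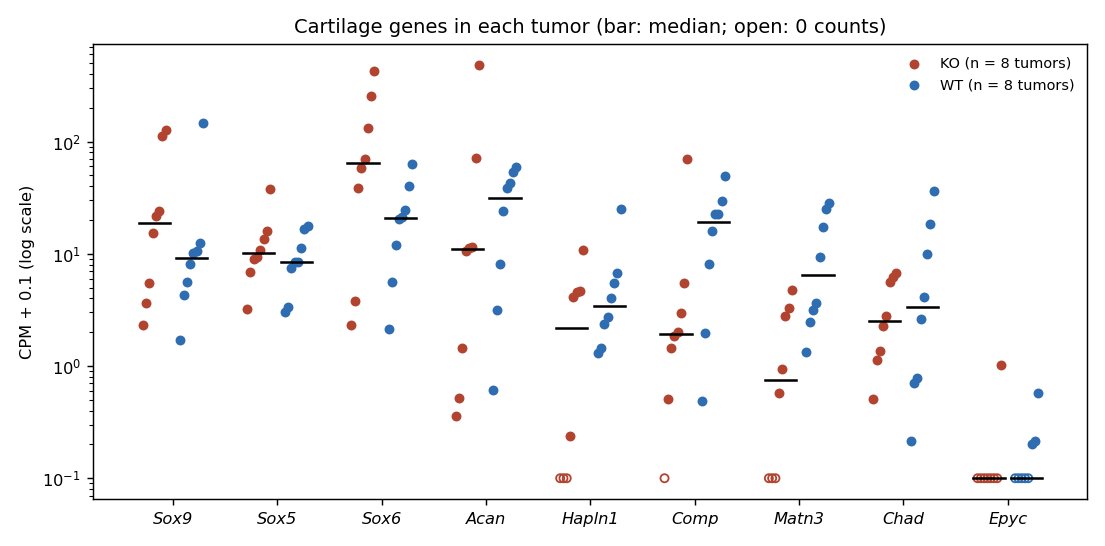
Level of 9 cartilage genes in each tumor (y axis: CPM + 0.1, log scale; KO red, WT blue, 8 tumors each; bars are medians and open points are tumors with 0 counts). The groups overlap for every gene, and *Acan* has the widest spread in KO, from 0.255 to 484.7 CPM.

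The regulators came first, with gene positions given in GRCm38 from GENCODE. *Sox9* (chr11:112782224-112787760), the master factor of chondrocyte fate, ranged from 2.23 to 127.6 CPM in KO tumors (median 18.6) and from 1.62 to 146.8 CPM in WT tumors (median 9.02). The highest values, in N215 (146.8 CPM), Grilka (127.6 CPM) and Prince (111.8 CPM), stood well above the other tumors, in which *Sox9* stayed at or below 24.1 CPM, and only N215 lay above the KO range. *Sox9* had a log2 fold change of 0.65 (SE 0.94, adjusted p = 0.728, edgeR). The means were 39.0 ± 50.6 CPM in KO and 24.9 ± 49.4 CPM in WT (SD, n = 8 tumors each), so the difference was smaller than the spread within either group. Without the single tumor of N215 it was 2.41 (adjusted p = 0.0733), without Grilka 0.12 (adjusted p = 0.958) and without Prince 0.16 (adjusted p = 0.947), and over counts summed per mouse it was −0.08. DESeq2 gave 2.30 with adjusted p = 0.0132 after replacing the N215 count of 1294 by 99. In Prince, where *Sox9* was at 111.8 CPM, the salivary gland markers summed to 25790 CPM, in Grilka, the next highest of the 16 tumors, to 167.8 CPM, and in N215, the highest in WT, to 36.4 CPM. *Sox9* and the salivary sum gave r = 0.619 and rho = 0.441 over 16 tumors (permutation p = 0.00683 and 0.0894, BH-adjusted 0.116 and 0.612 over 96 relations), and r was 0.330 without Prince and Grilka.

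*Sox5* and *Sox6*, long-form partners of *Sox9* that lack an activation domain, had at least 1 count in all 16 tumors, and *Sox6* had only 1 count in Massa. *Sox5* (chr6:143828425-144781977) had the smallest SD of log2 CPM of the 8 tested genes in both groups and ran from 3.15 to 37.6 CPM in KO (median 10) and from 2.96 to 17.7 CPM in WT (median 8.38), with a log2 fold change of 0.45 (SE 0.48, adjusted p = 0.614, edgeR). The highest *Sox5* value was in Grilka, which alone lay above the WT range, and without Grilka the log2 fold change was 0.037. Without N215 it was 0.67. *Sox6* (chr7:115470872-116038796) ranged from 2.23 to 428.7 CPM in KO (median 64.0) and from 2.04 to 62.5 CPM in WT (median 20.7). In 4 KO tumors *Sox6* exceeded every WT tumor, Oregon (428.7 CPM), Montana (255.6 CPM), Zelda (131.7 CPM) and Grilka (69.8 CPM), while Massa and Prince lay near the bottom of the WT range. Its log2 fold change was 2.41 (SE 0.84, adjusted p = 0.103, edgeR), and DESeq2 called it at adjusted p = 0.0270. On log2 CPM the exact permutation test over tumors gave p = 0.177 for a mean difference of 1.54, and over mouse means p = 0.521.

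Oregon and Montana, which gave 58.2% of all *Sox6* CPM, were the tumors with the highest skeletal muscle markers, and Zelda was the tumor with the highest erythroid markers. Without Oregon and Montana the *Sox6* log2 fold change was 1.12 (adjusted p = 0.440, edgeR). *Sox6* and the muscle marker sum gave Pearson r = 0.571 and Spearman rho = 0.450 over 16 tumors (permutation p = 0.0209 and 0.0824, BH-adjusted 0.214 and 0.612 over 96 relations). Without Oregon and Montana r was 0.263. *Sox6* and the erythroid sum gave r = 0.197 and rho = 0.141 (permutation p = 0.463 and 0.602, BH-adjusted 0.846 and 0.862), and r was 0.086 without Zelda and the spine tumor of N43. In Grilka, with 69.8 CPM of *Sox6*, muscle markers summed to 269.9 CPM and erythroid markers to 17.5 CPM.

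**Figure D2:**
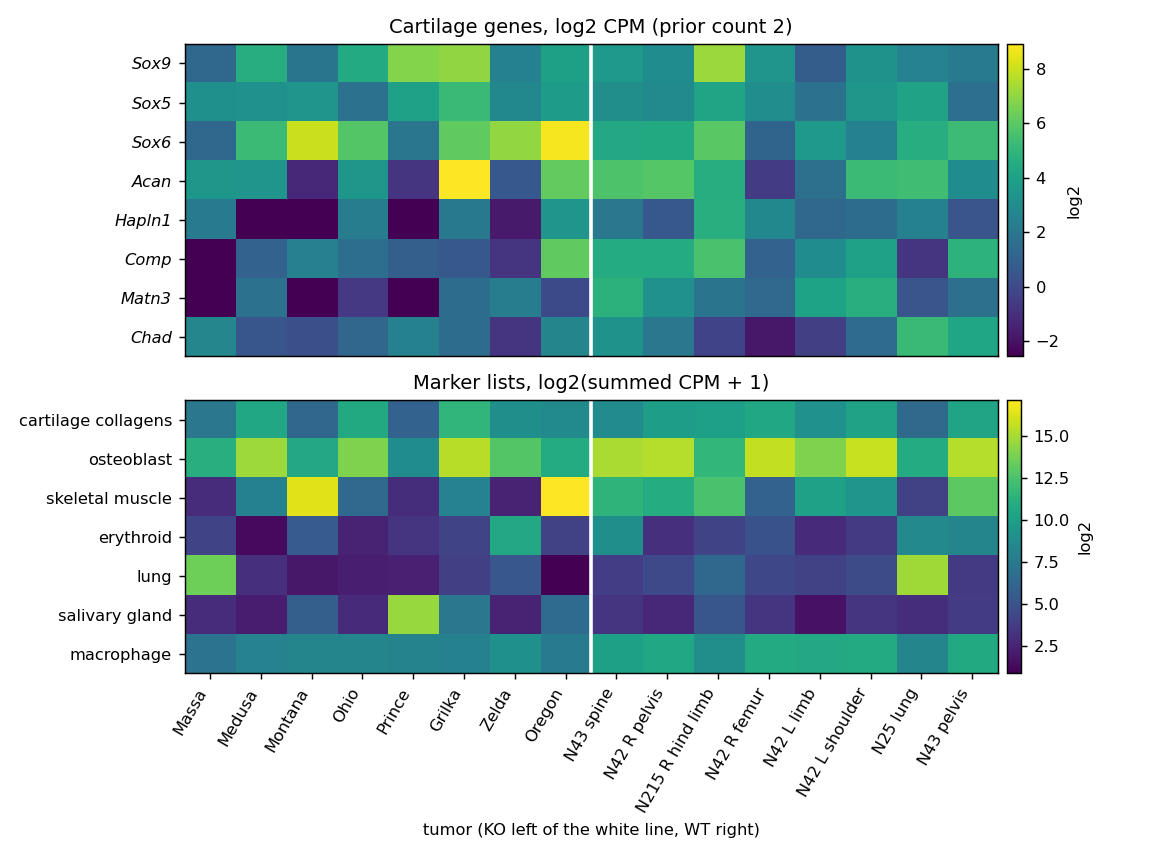
Upper panel, log2 CPM (prior count 2) of 8 cartilage genes in the 16 tumors, KO left and WT right of the white line, and lower panel, log2(summed CPM + 1) of marker lists in the same tumors. *Sox6* is brightest in Oregon and Montana, where the skeletal muscle sum is also brightest, and *Acan* is brightest in Grilka.

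*Acan* (chr7:79053483-79115099) had the widest spread of the 8 genes in KO (SD of log2 CPM 3.46), while in WT its SD of 2.31 was below the 2.44 of *Chad*. In KO it ran from 0.255 CPM in Montana to 484.7 CPM in Grilka (median 10.9), and in WT from 0.511 CPM in the R femur tumor of N42 to 59.0 CPM in the R pelvis tumor of the same mouse (median 31.4). The Grilka value rests on 361 counts (95% exact interval 436.0 to 537.4 CPM, counting error only) and made up 59.2% of all *Acan* CPM in the 16 tumors. It was scaled with a TMM factor of 0.414. Next came Oregon at 70.8 CPM, and the other 6 KO tumors stayed at or below 11.4 CPM, within the WT range or just under it. The edgeR log2 fold change was 1.34 (SE 1.21, adjusted p = 0.542), whereas without Grilka it was −0.93 (adjusted p = 0.624), and the mean difference of log2 CPM was −0.87 (exact permutation p = 0.560). Neither direction was larger than the spread between tumors. *Hapln1* (chr13:89539796-89611652), whose product binds aggrecan to hyaluronan, was at 0 in Medusa, Montana and Prince and reached 10.6 CPM in Oregon (KO median 2.082), against 1.20 to 25.2 CPM in WT (median 3.31). All 8 WT tumors had *Hapln1* counts, and the highest was N215. For *Hapln1* the log2 fold change was −1.13 (SE 1.04, adjusted p = 0.549, edgeR), −0.23 without N215 and −2.07 without Oregon. In Grilka *Hapln1* had 3 counts (4.03 CPM, 95% exact interval 0.831 to 11.8) beside 361 of *Acan*.

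The adaptor proteins connect fibrils with proteoglycans. *Matn3* (chr12:8947929-8972028), a matrilin of growth plate cartilage, ranged from 0 to 4.68 CPM in KO (median 0.658) and from 1.23 to 28.2 CPM in WT (median 6.38). All 8 KO tumors were below the WT median, 5 were below every WT tumor, and 4 WT tumors were above every KO tumor, although the ranges overlapped between 1.23 and 4.68 CPM. *Matn3* had no counts in Massa, Montana and Prince. In the shallow library of Massa 3 counts equal 6.69 CPM, and its 0 counts of *Matn3* have an upper 95% exact bound of 8.13 CPM. The WT median lies under that bound, so the 0 in Massa says little. For *Matn3* the log2 fold change was −2.84 (SE 0.92, adjusted p = 0.0831, edgeR). The exact permutation test on log2 CPM gave p = 0.00653 over tumors (difference −3.12) and p = 0.0444 over mouse means (difference −2.58), before any adjustment for the 8 genes. DESeq2 placed it at adjusted p = 0.0218 and limma-voom at 0.652. Leaving out Zelda, the highest KO tumor, brought the edgeR value to −3.56 with adjusted p = 0.0399. *Matn3* followed the summed osteoblast markers with Pearson r = 0.738 and Spearman rho = 0.631 over 16 tumors (permutation p = 0.00144 and 0.0107, BH-adjusted 0.0461 and 0.324 over 96 relations), and r was 0.596 without Prince and Montana. Within the groups rho was 0.623 in KO and 0.286 in WT, and over 12 mouse means r was 0.748. The relation was not particular to osteoblast markers. *Matn3* gave r = 0.745 with the macrophage sum, 0.660 with the tendon sum and −0.641 with the epithelial sum (permutation p BH-adjusted 0.0461, 0.116 and 0.116). The osteoblast sum was mostly *Col1a1*, at a mean of 18290 CPM over the 16 tumors, with *Spp1* next at 1204 CPM. The tendon sum was mostly *Tnc* (mean 1464 CPM). Relations of *Matn3* to the other markers of these lists were not tested. The osteoblast sum ranged from 449.5 to 43220 CPM in KO and from 1861 to 55060 CPM in WT, and its part in the *Matn3* difference was not tested.

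**Figure D3:**
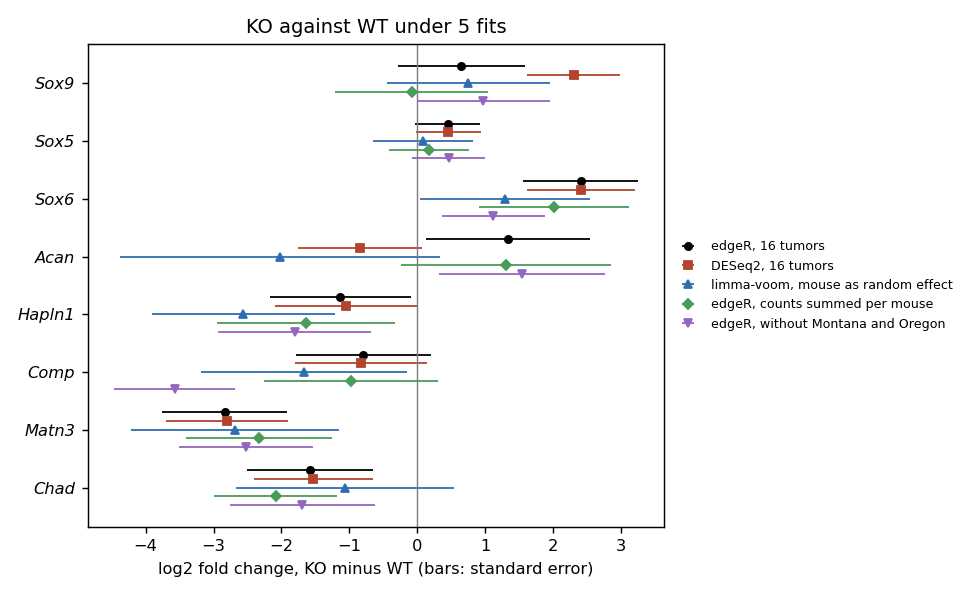
Log2 fold change, KO minus WT, of the 8 tested cartilage genes with its standard error under 5 fits (colors and symbols). *Matn3* lies below 0 and *Sox6* above 0 in all 5, while *Acan* lies on both sides and *Sox9* ranges from −0.08 to 2.30.

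*Comp* (chr8:70373558-70382066), the oligomeric matrix protein of cartilage and tendon, ranged from 0 to 69.4 CPM in KO (median 1.82) and from 0.387 to 49.2 CPM in WT (median 19.1). Oregon held the highest value of all 16 tumors, while the other 7 KO tumors did not exceed 5.36 CPM and 5 WT tumors were above 15 CPM. It had a log2 fold change of −0.80 (SE 1.00, adjusted p = 0.677, edgeR), −0.36 without N215, −3.13 without Oregon (adjusted p = 0.0601) and −3.57 without Oregon and Montana (adjusted p = 0.0487). The exact permutation test on log2 CPM gave p = 0.0883 over tumors and p = 0.242 over mouse means. Oregon was also the tumor with the highest skeletal muscle marker sum.

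Across all 16 tumors *Comp* varied with skeletal muscle markers. Pearson r was 0.839 and Spearman rho was 0.879 (permutation p = 9e-05 and 6e-05, BH-adjusted 0.00864 and 0.00576 over 96 relations). Without Oregon and Montana r was 0.918, and within groups rho was 0.810 in KO and 0.929 in WT. Montana, with a muscle sum of 87410 CPM, had 5.36 CPM of *Comp*, while Oregon had 69.4 CPM. Over 12 mouse means r was 0.839 and rho was 0.867 (permutation p = 0.00085 and 0.00055). With the summed tendon markers *Comp* gave r = 0.276 and rho = 0.256 over 16 tumors (permutation p = 0.298 and 0.336, BH-adjusted 0.748 and 0.807). This sum was mostly *Tnc*, at a mean of 1464 CPM over the 16 tumors, with *Thbs4* next at 125.1 CPM. A relation of *Comp* to the other tendon markers was not tested. By rank, the genes most like *Comp* over the 16 tumors were *Myoz1* (rho = 0.903), *Actn3* (0.900), *Neb* (0.897), *Cacna1s* (0.896) and *Mylf-ps* (0.896), the first 4 being genes of the skeletal muscle sarcomere or its calcium channel. These genes were listed after the values of *Comp* were seen, and *Actn3* is itself one of the 12 muscle markers. *Comp* was at 0 to 1.34 CPM in Massa and Grilka, where 3 counts exceed that level.

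**Figure D4:**
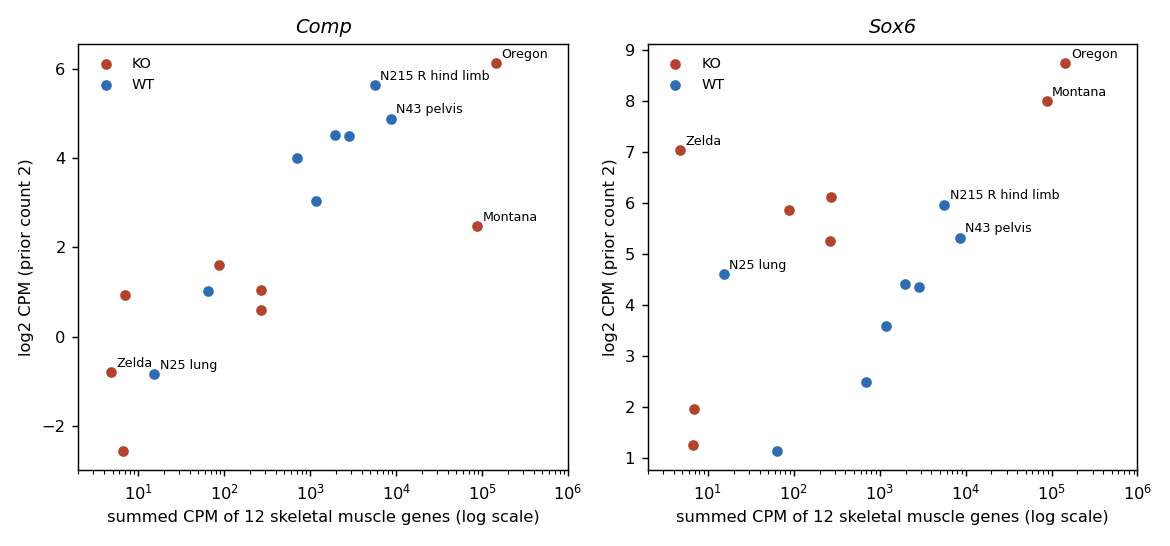
Log2 CPM (prior count 2) of *Comp* and *Sox6* against the summed CPM of 12 skeletal muscle markers (x axis, log scale) in the 16 tumors, KO red and WT blue. *Comp* is higher where the muscle sum is higher, with Montana lower than its muscle sum, and *Sox6* in Zelda is high at a muscle sum of 4.75 CPM.

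The leucine-rich repeat proteins were low. *Chad* (chr11:94565047-94569127), which binds integrins and collagen, ranged from 0.407 to 6.69 CPM in KO (median 2.44) and from 0.114 to 36.2 CPM in WT (median 3.26). The lung tumor of N25 (36.2 CPM), both tumors of N43 (18.2 and 9.78 CPM) and Massa (6.69 CPM, from 3 counts) were the highest. The log2 fold change was −1.58 (SE 0.92, adjusted p = 0.315, edgeR) and −0.77 without the N25 tumor (adjusted p = 0.612). In N25, lung markers summed to 29170 CPM, and in Massa to 12240 CPM. Over 16 tumors *Chad* and the lung sum had r = 0.373 and rho = −0.009 (permutation p = 0.155 and 0.978, BH-adjusted 0.620 and 0.985), and r was −0.395 without N25 and Massa. *Epyc* (chr10:97644068-97682454), an epiphyseal proteoglycan, was close to absent, with 11 counts in Prince (0.913 CPM), 8 in the L shoulder tumor of N42 (0.472 CPM), 2 in its L limb tumor, 1 in N215 and none in the other 12 tumors.

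Levels per kilobase of exon allow the genes to be ordered. In WT the medians were 6.44 CPM per kb for *Comp*, 4.203 for *Acan*, 2.18 for *Sox9*, 2.12 for *Matn3*, 1.94 for *Chad*, 1.398 for *Sox6*, 0.583 for *Sox5* and 0.560 for *Hapln1*. In KO the medians per kb began with *Sox9* (4.49) and *Sox6* (4.31), followed by *Acan* (1.45), *Chad* (1.45), *Sox5* (0.696), *Comp* (0.614), *Hapln1* (0.353) and *Matn3* (0.218). Every pair of neighbors in both orders overlapped in range, and *Comp* exceeded *Acan* in 6 of 8 WT tumors. *Sox9* exceeded *Matn3* per kb in 3 of 8 WT tumors. No pair of cartilage genes was correlated past BH adjustment over the 28 pairs. The strongest were *Sox9* with *Sox5* (r = 0.616, rho = 0.538, permutation p = 0.0105 and 0.0332) and *Acan* with *Hapln1* (r = 0.557, rho = 0.503, permutation p = 0.0259 and 0.0494). Of the 28 rho values, 20 were above 0 and the median was 0.158.

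Body sites could be compared in WT tumors only. Limb tumors (R femur, L limb and L shoulder of N42, R hind limb of N215) were set against trunk tumors (R pelvis of N42, spine and pelvis of N43). None of the 8 genes passed an adjusted p of 0.05, against 0% of 17131 genes, and at an unadjusted p under 0.05 there was 1 of 8, *Chad*, against 3.74% of all genes. *Chad* was at 3.99, 9.78 and 18.2 CPM in the trunk tumors (mean 10.7 ± 7.15 CPM, SD, n = 3) and at 0.114 to 2.54 CPM in the limb tumors (mean 0.985 ± 1.07 CPM, SD, n = 4), with no overlap. Among all genes tested, 4.89% did not overlap between limb and trunk. The pelvis tumor of N43, at 18.2 CPM, was above its spine tumor, at 9.78 CPM. The separation of *Chad* therefore depends on counting the pelvis as trunk. Its log2 fold change, limb minus trunk, was −3.43 (SE 0.92, adjusted p = 0.974, edgeR), and it ran from −4.56 to −1.13 over 12 alternatives. In 1 of these the spine tumor of N43 was the only trunk tumor. DESeq2 placed *Chad* at adjusted p = 0.0691. A permutation of 7 tumors cannot go below p = 0.0571. With mouse as a block the value was −1.89 (adjusted p = 1), a contrast that rests on N42, the only mouse with both sites. Within N42 the R pelvis tumor, at 3.99 CPM, was above the 3 limb tumors. *Hapln1* (log2 fold change 2.04, adjusted p = 0.974, edgeR) and *Sox9* (2.33, adjusted p = 0.974, edgeR) were higher on average in limbs, where N215 held the highest value of both. Without N215 they were 0.83 and −0.17, and with the pelvis tumors counted among the limbs *Hapln1* was 0.71 and *Sox9* 1.262. Counting the pelvis so leaves the spine tumor of N43 as the only trunk tumor. *Comp* lay within 22.4 to 29.2 CPM in the 3 trunk tumors and between 1.87 and 49.2 CPM in the 4 limb tumors. *Acan* ran from 8.07 to 59.0 CPM in trunk and from 0.511 to 38.7 CPM in limb tumors, *Matn3* from 3.06 to 28.2 CPM and from 2.39 to 24.9 CPM, and the site ranges overlapped for both. In the lung tumor *Sox5* was at 16.6 CPM, *Acan* at 42.3 CPM and *Comp* at 0.387 CPM. Site and mouse cannot be told apart in most of these tumors.

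**Figure D5:**
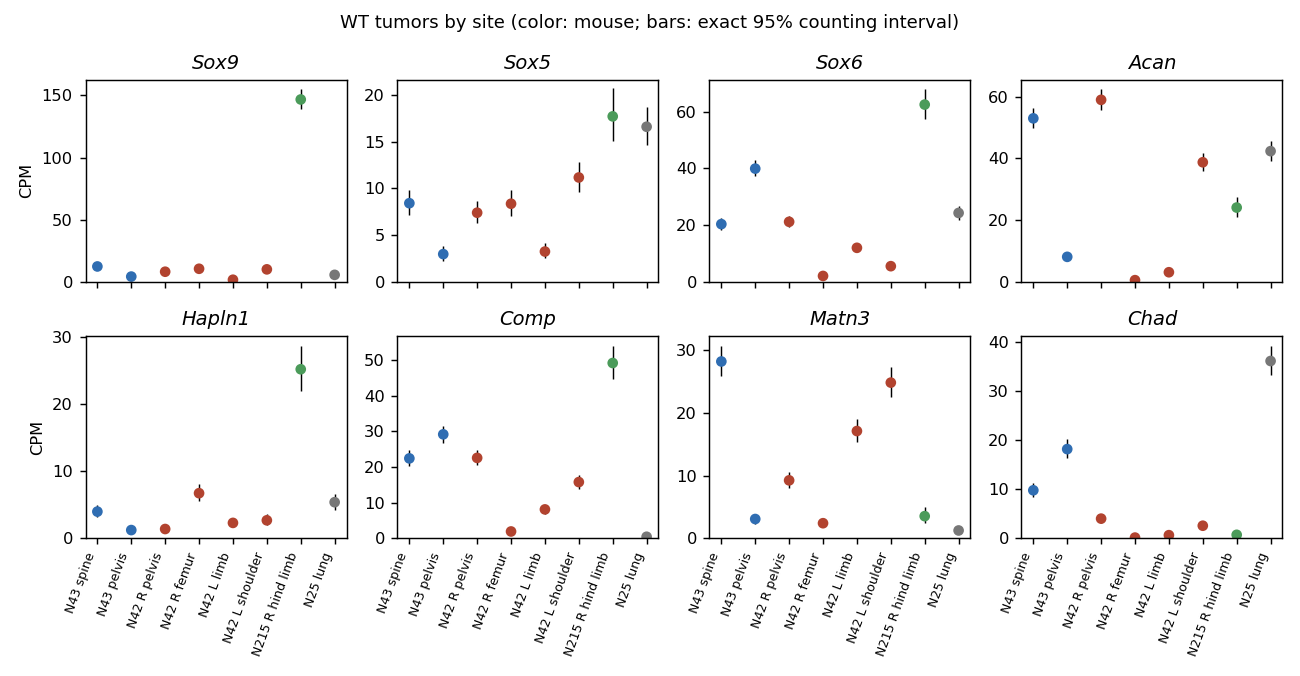
CPM of 8 cartilage genes in each WT tumor (linear axes from 0; color is the mouse, bars are exact 95% counting intervals). *Chad* was higher in the 3 spine and pelvis tumors than in the 4 limb tumors, and highest in the lung tumor, while N215 was highest for *Sox9*, *Sox5*, *Sox6*, *Hapln1* and *Comp*.

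Tumors of a single mouse differed as much as tumors of different mice for *Acan*. Within N42 it ran from 0.511 CPM in the R femur to 59.0 CPM in the R pelvis, a log2 CPM range of 6.44 that equals the range of all 8 WT tumors. The R pelvis and L shoulder tumors of N42 were at 59.0 and 38.7 CPM, and the R femur and L limb tumors at 0.511 and 3.08 CPM. *Chad* differed 14.7-fold, *Comp* 11.1-fold and *Matn3* 9.79-fold within N42 on the log2 CPM scale. *Sox5* differed least, 3.33-fold. Within N43 the spine tumor had 6.45-fold more *Acan* and 8.8-fold more *Matn3* than the pelvis tumor, whereas *Comp* differed only 1.30-fold.

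Other cartilage genes were described for context, from the edgeR fit over the 16 tumors, in which 4.01% of all genes passed. Of the 15413 genes of that fit, 8606 were higher and 6795 lower in KO. The fit takes tumors of one mouse as independent, and values over mice are not given for these genes. Of 8 cartilage collagens 6 were tested and none passed, and their median log2 fold change was −0.48. The 3 most abundant were *Col11a1* (−0.77, adjusted p = 0.614), *Col11a2* (1.24, adjusted p = 0.405) and *Col27a1* (−0.47, adjusted p = 0.747, edgeR). *Col2a1*, type II collagen, named after its values were seen, averaged 57.3 ± 80.8 CPM in KO and 80.6 ± 169 CPM in WT (SD, n = 8 tumors each) and was highest in the pelvis tumor of N43 (488.7 CPM), where *Sox9* was at 4.16 CPM and *Acan* at 8.07 CPM. Of 20 other cartilage matrix genes 11 were tested, 9 lower and 2 higher in KO, and only *Vit* (vitrin) passed, at −3.17 (SE 0.67, adjusted p = 0.0159, edgeR; 1.68 ± 1.80 CPM in KO and 15.99 ± 12.16 CPM in WT, SD, n = 8 each). The 3 most abundant were *Fmod* (−2.76, adjusted p = 0.0710), *Tnxb* (1.72, adjusted p = 0.301) and *Cilp* (−1.75, adjusted p = 0.237). Of 18 chondrocyte regulators and signals 10 were tested and 1 passed, *Arid5b* (−0.92, SE 0.23, adjusted p = 0.0362, edgeR), a partner of *Sox9*. The 3 most abundant were *Mef2c* (0.82), *Trps1* (−0.97) and *Pth1r* (0.86), none past the threshold. All 22 genes of chondroitin sulfate synthesis were tested, 11 higher and 11 lower, and 1 passed, the sulfotransferase *Chst12* (−1.62, SE 0.41, adjusted p = 0.0384, edgeR). The most abundant were *Chsy1* (1.57), *Slc35d1* (2.27) and *Ugdh* (−0.21), none past the threshold.

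The tested genes most like *Sox9* in rank over the 16 tumors were *Mllt1* (rho = 0.932), *Unk* (0.891), *Capn15* (0.885), *Auts2* (0.871) and *Arid1a* (0.859). *Arid1a* followed the order of *Sox9* exactly among the 8 KO tumors (rho = 1.00) and less closely among the 8 WT tumors (rho = 0.619). The lowest *Sox9* value in KO, in Massa, rests on 1 count (2.23 CPM, 95% exact interval 0.0565 to 12.4). That interval includes Montana (3.57 CPM) and Zelda (5.43 CPM), so the exact order in KO is not resolved. For *Acan* they were *Lpar4* (rho = 0.800), *Anxa8* (0.709), *Cox4i2* (0.703), *Mageh1* (0.700) and *Gng11* (0.682). The tumors share libraries and depths across all of these genes, and the values are descriptions.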

How the data were processed

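RNA of 16 mouse osteosarcomas was depleted of ribosomal RNA and sequenced from one end in 50-cycle runs. The authors aligned reads with Novoalign 2.08.01 to mm10 and transcript junctions, kept the best of multiple alignments, and deposited raw counts per gene made with USeq. Strand is not given in the sources used here, so reads of *Sox5* and *Epyc* cannot be told from those of their antisense genes. Positions and exon lengths came from GENCODE vM21.

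Groups came from the labels. edgeR 4.0.16 in R 4.3.3 was used with TMM normalization, filterByExpr (minimum count 10) and the quasi-likelihood test, adjusted by Benjamini-Hochberg over all genes tested (15413 for genotype), two-sided. Log2 CPM had a prior count of 2. Exact permutation tests used all 12870 splits of the tumors or 495 of the mice. DESeq2 1.42.0 and limma 3.58.1 were alternatives, with others given below. The 2 correlation families used 100000 permutations, with marker sums as log2(CPM + 1).

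The genes and lists were chosen with earlier results of these data known. Outside the 10 genes, each cartilage list was named by its 3 most abundant members and any past the threshold. Each marker list of other tissues was named only by members past the threshold and its sum. The osteoblast and tendon lists were also named by their most abundant members. The rule set for naming covered the 3 most abundant members of all these lists. *Gm23935*, planned as a covariate for ribosomal RNA, is annotated as a miRNA in GENCODE. The lists were cartilage collagens, other cartilage matrix, chondrocyte regulators, chondroitin sulfate synthesis and markers of osteoblast, tendon, muscle, erythroid, epithelial, lung, salivary, macrophage and proliferating cells. The result of 1 further marker list is not reported here. The labels do not say whether the tumors were extracted together, so p-values measure the spread between these samples. Intervals are exact binomial at 95%, on the share of a count in its library, and cover counting error only. The fit was checked on simulated data.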

Additional observations from a re-analysis of the deposited data

Results flagged for a closer look

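In *Sox9*, the R hind limb tumor of N215 stood apart from the other 7 WT tumors: its gap to the nearest of them was 0.559 of the range of the group, above Dixon's 95% critical value for 8 samples. *Epyc* had counts in 1 KO tumor, Prince, whose gap was 1.0 of the range, and the L shoulder tumor of N42 stood apart in WT with a gap of 0.616. With *Epyc* at 0 counts in the other 7 KO tumors, any count in Prince would give a gap of 1.0. In WT 5 tumors were at 0 counts. These were 3 of 18 groups tested, and chance flags about 1 in 20 groups, a rate that does not hold for groups tied at 0.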

How the results depend on the processing

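Over 28 alternatives, *Matn3* was below 0 in each, between −3.56 and −2.10 (adjusted p 0.0218 to 0.699), and *Sox6* above 0 in each, between 1.12 and 2.85 (0.0270 to 0.810). The fits without Prince and without the N25 tumor are each counted again among the fits with 1 tumor left out, so not all 28 are distinct. *Comp* (−3.57 to −0.36), *Chad* (−2.39 to −0.77) and *Hapln1* (−2.56 to −0.23) also kept direction. The sign turned for *Sox9* over mice (−0.08), without the 4 tumors of N42 (−0.093) and with the log2 CPM of *Gm23935* as a covariate (−0.98). It turned for *Sox5* with that covariate (−0.79). For *Acan* it turned with DESeq2 (−0.84, the Grilka count of 361 replaced by 14), limma-voom (−2.02), without Massa and Grilka (−0.92) and with the covariate (−3.48). Leaving out 1 tumor at a time gave −0.93 to 1.57 for *Acan*. In limb against trunk it turned for *Sox9* with a mouse block (−0.15; 1 tumor left out, −0.17 to 2.74), *Sox6* with pelvis among limbs (0.23) and *Matn3* with the block (0.67; 1 tumor left out, −0.81 to 0.96). The block contrast rests on N42 alone, and pelvis among limbs leaves the spine tumor of N43 as the only trunk tumor. The cause of these turns was not tested.

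Cartilage genes past the threshold numbered 3 with DESeq2, 1 without Montana and Oregon (*Comp*), and 0 to 1 leaving out 1 tumor. All genes past the threshold numbered 618, with DESeq2 2517, limma-voom 17, over mice 10, without N42 8, with the covariate 8, without Montana and Oregon 372, and 252 (without the L shoulder tumor of N42) to 1348 (without Zelda) leaving out 1 tumor. For limb against trunk DESeq2 called 31 genes. No paired analysis was possible because the KO and WT tumors came from different mice and share no replicate numbers in the labels. Depth limits the KO values of Massa and Grilka, where fewer than 4 counts of most of these genes were seen.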

Other observations

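Marker lists of other tissues, tested in the same comparison, gave these counts. Of 10 macrophage genes 9 were lower in KO past the threshold (*Csf1r*, *Mrc1*, *Adgre1*, *Cd68*, *Fcgr1*, *C1qa*, *C1qb*, *C1qc* and *Cd14*), with log2 fold changes of −2.95 to −1.68, against 4.01% of all genes past it. The summed macrophage markers ran from 131.6 to 516.2 CPM in KO. Among WT tumors, N25 (316.5 CPM) and N215 (479.3 CPM) lay within that range. The tumors of N42 and N43 lay above it, at 1124 to 1829 CPM. This fit takes tumors of one mouse as independent, and values over mice are not given for these genes. None passed among 12 osteoblast, 7 tendon, 12 skeletal muscle, 3 erythroid, 2 epithelial, 2 lung, 1 salivary gland and 10 proliferation genes tested by edgeR. At an unadjusted p under 0.05 there were 4 osteoblast, 2 tendon, 1 muscle and 1 salivary gland genes, against 23.0% of all genes. *Matn3* and the macrophage sum had r = 0.745 over 16 tumors, with rho of 0.216 within KO and 0.214 within WT.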
